A study of Mus musculus with 12 samples.

Results

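The 10 genes described here are Atf4, which encodes activating transcription factor 4 (ATF4), and 9 genes that respond to it or to a shortage of amino acids. They were given as a fixed list of gene IDs: Atf4 (ENSMUSG00000042406), Ddit3 (ENSMUSG00000025408), Trib3 (ENSMUSG00000032715), Asns (ENSMUSG00000029752), Chac1 (ENSMUSG00000027313), Sesn2 (ENSMUSG00000028893), Psat1 (ENSMUSG00000024640), Phgdh (ENSMUSG00000053398), Shmt2 (ENSMUSG00000025403) and Mthfd2 (ENSMUSG00000005667). No measured value entered the rule, but the members were chosen with earlier results of these data known. The counts of listed genes called below are therefore no test of the list against all genes. All 10 were among the 56748 gene IDs of the count table. All 10 also passed the filter on low counts, which 14338 genes passed in all.

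ATF4 is the main effector of the integrated stress response. When amino acids run short or the endoplasmic reticulum is stressed, kinases phosphorylate the initiation factor eIF2α, most translation slows, and the Atf4 message, held back by upstream open reading frames, is translated more. The protein pairs with C/EBP factors and binds C/EBP-ATF response elements in genes for amino acid synthesis, transport and stress feedback. Much of its control is therefore at translation, and the RNA level of Atf4 is not a measure of the protein. In stromal cells the serine and one-carbon enzymes of this programme supply nucleotide synthesis and glycine, which collagen contains in large amounts.

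The libraries came from mesenchymal stem cells of mouse adipose tissue, grown as attached single cells (2D) or as spheroids (3D), and sampled at 0 h and 24 h. Each of the 4 groups (2D 0 h, 2D 24 h, 3D 0 h, 3D 24 h) had 3 libraries. Per the labels' protocols all groups were kept in the same serum-containing DMEM. The labels give no strain, age or genotype, and do not state the age of the spheroids at 0 h. Whether the 3 replicates of a group came from separate cultures is also not stated. The p-values below therefore rest on a spread among libraries that may be technical only. Cell identity was not checked against markers, because only the listed genes could be named by ID.

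Library totals ran from 10182590 to 17109609 expected counts, and the genes of the list had between 171 counts (Chac1) and 6412 counts (Phgdh) in a library. Phgdh counts were not whole in any of the 12 libraries, which means that some of its reads were shared out with other genes, and its level is less certain for that reason. The factors by which libraries were rescaled (TMM) differed between groups, from 0.917 to 0.964 for attached cells of 0 h and from 1.06 to 1.08 for spheroids of 24 h. Levels are given as TPM, the authors' deposited measure that is scaled for gene length and library total, so that genes can be compared, with each library's value. Counts scaled for library total and the same TMM factors, with no scaling for length, are called CPM. Fold changes are from edgeR's quasi-likelihood test on the counts, with the standard error (SE) and a p-value adjusted over all 14338 genes. A gene was called at an adjusted p under 0.05. In bulk RNA of this kind, fewer cells that express a gene and less RNA per cell cannot be told apart.

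The sequence before the start of these genes was searched for the core of the C/EBP-ATF response element, TGATGNAA, on both strands. RefSeq windows of 300 bases on build GRCm38.p6 (250 before and 50 after each start) matched all 10 genes by symbol and gave 11 windows, since Psat1 has more than 1 start. The counts were made on GRCm39, and only the symbol links them to these windows. The core was in 3 of the 11 windows, those of Asns, Chac1 and Trib3, and in 3.97% of all 32851 windows. A match is a string of letters and not a shown binding site, and the absence of one says only that the letters are not in the window. The 250 bases before the start are shown for Asns (chr6:7693210-7693459, minus strand) and Chac1 (chr2:119350992-119351241, plus strand), with the core in capitals, and for Mthfd2 (chr6:83317605-83317854, minus strand) and Psat1 (chr19:15925060-15925309, minus strand), the genes that differed most at 0 h and 24 h, which lack it. All read 5′ to 3′ along the gene, and for Psat1 only the first of its windows is shown. In Chac1 the capitals are the reverse complement of the core.
Asns: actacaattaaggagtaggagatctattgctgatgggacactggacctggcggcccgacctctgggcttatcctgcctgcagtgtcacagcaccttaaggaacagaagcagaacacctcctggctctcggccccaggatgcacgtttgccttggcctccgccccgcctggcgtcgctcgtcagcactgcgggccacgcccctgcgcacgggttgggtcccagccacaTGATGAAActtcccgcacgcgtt
Chac1: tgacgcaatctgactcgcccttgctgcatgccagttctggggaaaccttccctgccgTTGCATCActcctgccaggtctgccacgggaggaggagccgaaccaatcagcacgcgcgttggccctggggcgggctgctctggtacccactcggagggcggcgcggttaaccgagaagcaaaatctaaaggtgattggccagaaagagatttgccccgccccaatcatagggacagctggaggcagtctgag
Mthfd2: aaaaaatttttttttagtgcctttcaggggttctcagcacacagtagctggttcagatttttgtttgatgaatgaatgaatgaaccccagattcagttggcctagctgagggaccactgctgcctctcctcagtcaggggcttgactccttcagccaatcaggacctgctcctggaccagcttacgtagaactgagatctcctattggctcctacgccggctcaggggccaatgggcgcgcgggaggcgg
Psat1: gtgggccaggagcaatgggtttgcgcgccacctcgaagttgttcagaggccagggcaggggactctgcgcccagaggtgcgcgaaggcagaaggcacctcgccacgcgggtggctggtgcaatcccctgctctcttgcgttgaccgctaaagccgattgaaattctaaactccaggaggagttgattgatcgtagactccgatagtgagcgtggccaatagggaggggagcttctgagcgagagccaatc

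Counted from the start, the core began at position -23 in Asns and its match began at position -193 in Chac1. The match of Trib3 lay after the start, with its first letter at transcribed base 15, and is shown here within 30 bases, again as the reverse complement in capitals.
Trib3: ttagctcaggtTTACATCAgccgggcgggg

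The genes did not move as 1 group. In spheroids at 0 h, Atf4, Chac1 and the enzyme genes Asns, Psat1, Phgdh and Mthfd2 were lower than in 2D, while Ddit3, Trib3, Sesn2 and Shmt2 were higher. At 24 h Atf4 stood at nearly the same level in both cultures, whereas all 5 enzyme genes were lower in 3D, Psat1 by 4.77-fold. Over 24 h the serine genes Psat1 and Phgdh fell in spheroids and Atf4 rose there.

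**Figure D1:**
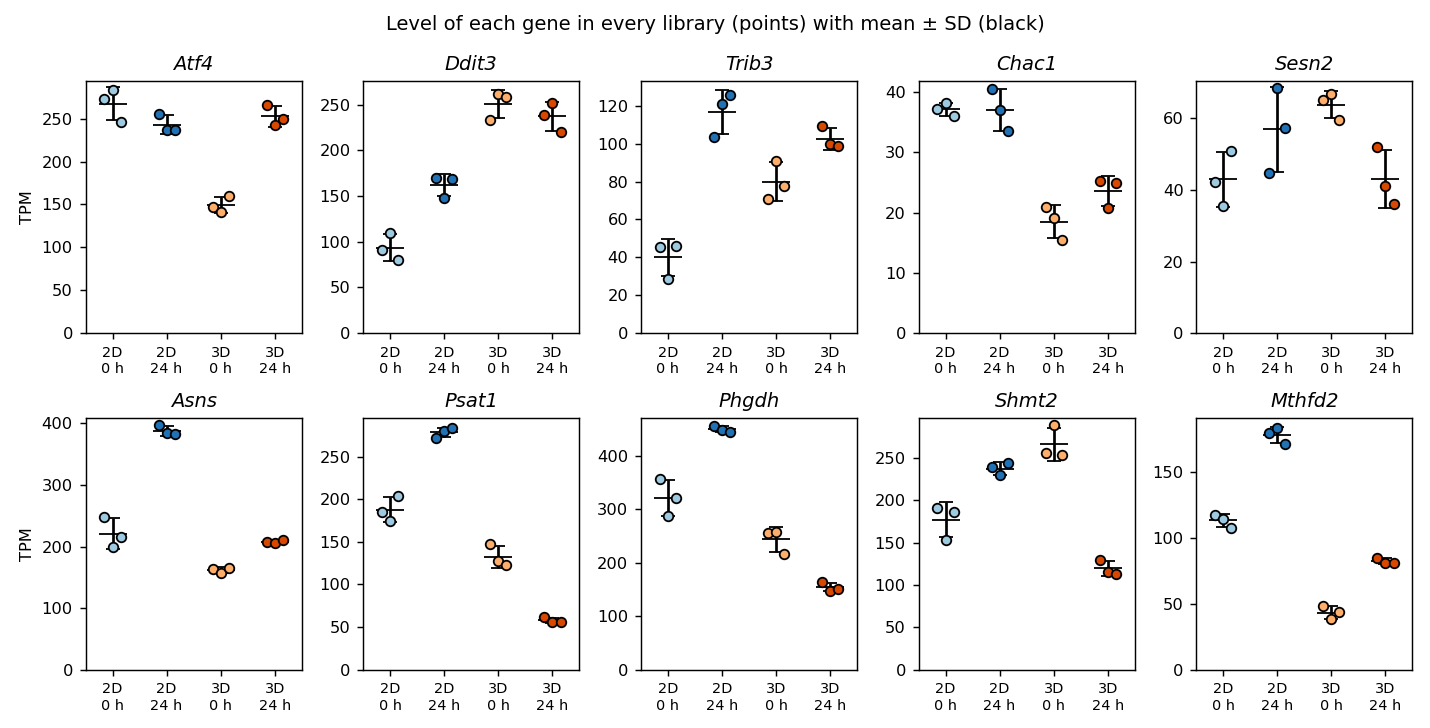
TPM of each of the 10 genes in the 12 libraries (points, 3 per group; vertical axes start at 0) with the group mean and SD in black. Atf4 was lowest in 3D at 0 h, Ddit3 lowest in 2D at 0 h, and Psat1 and Phgdh lowest in 3D at 24 h, with means of 58.0 and 154 TPM.

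Atf4 itself stood at 273, 283 and 246 TPM in the 2D libraries at 0 h and at 256, 236 and 237 TPM in those at 24 h. The spheroid libraries had 147, 141 and 159.6 TPM at 0 h and 266, 242.5 and 249.7 TPM at 24 h. The 3 spheroid libraries of 0 h lay below all others, and the other 3 groups lay close together on this scale. By CPM the 2D libraries of 0 h (mean 299) stood above those of 3D at 24 h (mean 236) without overlap, and 2D at 24 h had a mean of 232.5. By counts Atf4 was 1.98-fold lower in 3D at 0 h (log2 fold change -0.99 ± 0.11 SE, adjusted p = 1.6e-06). At 24 h the log2 difference was 0.02 (adjusted p = 0.90), with a 95% interval of -0.21 to 0.25. Without 2D 24 h replicate 3 the sign of that small value turned (-0.019).

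Ddit3 encodes CHOP, a C/EBP family factor that ATF4 induces and that promotes cell death under lasting stress. Its levels were 91.25, 109.8 and 79.7 TPM in 2D at 0 h and 170.2, 148 and 169 TPM in 2D at 24 h. Spheroids had 233, 261 and 259 TPM at 0 h and 239, 252 and 221 TPM at 24 h. Every spheroid library was above every 2D library, and the spheroid groups overlapped each other. Ddit3 was 2.41-fold higher in 3D at 0 h (log2 fold change 1.27 ± 0.14, adjusted p = 1.8e-06) and 1.42-fold higher at 24 h (0.51 ± 0.14, adjusted p = 0.0080). The call at 24 h ended without 3D 24 h replicate 2 (0.39, adjusted p = 0.053).

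Trib3 encodes a pseudokinase that binds ATF4 and CHOP and limits their activity, and is itself a target of both. It had 45.3, 28.7 and 45.95 TPM in 2D at 0 h and 104, 121 and 126 TPM in 2D at 24 h. The spheroids had 70.8, 91.1 and 77.8 TPM at 0 h and 109, 99.7 and 99.05 TPM at 24 h. Trib3 was lowest in 2D at 0 h, and the groups at 24 h overlapped by TPM but not by CPM. It was 1.77-fold higher in 3D at 0 h (0.83 ± 0.15, adjusted p = 0.00019). At 24 h it was not called (log2 fold change -0.19, 95% interval -0.50 to 0.11, adjusted p = 0.30).

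Chac1 encodes an enzyme that breaks down glutathione and is a common readout of the ATF4 to CHOP arm. It was the least abundant gene of the list in each group on the TPM scale, at 37.2, 38.1 and 36 TPM in 2D at 0 h and 40.6, 37.0 and 33.6 TPM in 2D at 24 h. In 3D it had 20.8, 19.1 and 15.5 TPM at 0 h and 25.25, 20.8 and 24.9 TPM at 24 h. All 2D libraries lay above all spheroid libraries, the reverse of Ddit3. Chac1 was 2.23-fold lower in 3D at 0 h (-1.15 ± 0.15, adjusted p = 1.0e-05) and 1.61-fold lower at 24 h (-0.69 ± 0.15, adjusted p = 0.0013).

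Sesn2 encodes sestrin 2, a leucine sensor that restrains mTORC1 and that p53 can also induce. Its levels were 42.3, 35.6 and 51.0 TPM in 2D at 0 h and 44.8, 68.5 and 57.45 TPM in 2D at 24 h. Spheroids had 65.3, 66.9 and 59.5 TPM at 0 h and 52.1, 41.2 and 36.2 TPM at 24 h. On the TPM scale each group overlapped its neighbour in the order of the 4 means, also 3D and 2D at 24 h. By CPM these came apart only narrowly, with the lowest 2D library at 100.07 and the highest 3D library at 99.8. Sesn2 was 1.35-fold higher in 3D at 0 h (0.44 ± 0.14, adjusted p = 0.017) and 1.33-fold lower at 24 h (-0.41 ± 0.14, adjusted p = 0.027). Both calls were fragile. The first ended without 2D 0 h replicate 2 or 3D 0 h replicate 2 (adjusted p = 0.081 and 0.053). The second ended when any of 7 of the 12 libraries was left out, namely 2D 0 h replicate 1, 2D 24 h replicates 2 and 3, 3D 0 h replicates 1 and 2, and 3D 24 h replicates 2 and 3 (log2 fold changes -0.42 to -0.25, adjusted p = 0.056 to 0.22). It also ended with upper-quartile scaling, library totals and limma on the TPM values (adjusted p = 0.057, 0.11 and 0.088).

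Asns encodes asparagine synthetase, which makes asparagine from aspartate and glutamine and is a classic target of amino acid limitation. It had 248, 199.6 and 216 TPM in 2D at 0 h and 397, 384 and 383 TPM in 2D at 24 h. Spheroid libraries had 164, 157 and 165 TPM at 0 h and 208, 207 and 210.1 TPM at 24 h. The 2D libraries of 24 h stood apart above all others, and those of 3D at 0 h lay below all others. Asns was 1.45-fold lower in 3D at 0 h (-0.54 ± 0.10, adjusted p = 0.00027) and 1.88-fold lower at 24 h (-0.91 ± 0.10, adjusted p = 8.9e-07).

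Phgdh and Psat1 encode the enzymes of the opening steps of serine synthesis from glycolysis, phosphoglycerate dehydrogenase and phosphoserine aminotransferase. Psat1 had 186, 174 and 203 TPM in 2D at 0 h and 272, 280 and 283 TPM in that culture at 24 h. Spheroid libraries had 147, 127 and 123 TPM at 0 h and 61.75, 56.4 and 55.9 TPM at 24 h. No 2 of the 4 groups overlapped, and the last was the lowest. Psat1 was 1.55-fold lower in 3D at 0 h (-0.63 ± 0.10, adjusted p = 8.1e-05) and 4.77-fold lower at 24 h (-2.25 ± 0.11, adjusted p = 3.4e-11), the largest difference within the list at either time.

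Phgdh followed the same order of groups. It had 356, 288 and 320.3 TPM in attached cells at 0 h and 456, 447 and 445 TPM at 24 h. In spheroids it had 256, 258 and 216 TPM at 0 h and 163, 148 and 152 TPM at 24 h. Again no groups overlapped on the TPM scale, though the 2D groups did by CPM. Phgdh was 1.46-fold lower in 3D at 0 h (-0.54 ± 0.11, adjusted p = 0.00091) and 2.98-fold lower at 24 h (-1.57 ± 0.12, adjusted p = 8.4e-09).

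Shmt2 and Mthfd2 encode mitochondrial enzymes that act in sequence: serine hydroxymethyltransferase 2 splits serine into glycine and a one-carbon unit, and MTHFD2 oxidises that unit on folate. The pair did not move together. Shmt2 had 191, 153 and 187 TPM in attached cells at 0 h and 239, 229.6 and 245 TPM at 24 h. In spheroids it had 256, 289 and 254 TPM at 0 h and 129.7, 116 and 113 TPM at 24 h. Spheroids thus held both the highest and the lowest levels of Shmt2. It was 1.35-fold higher in 3D at 0 h (0.44 ± 0.11, adjusted p = 0.0031) and 2.02-fold lower at 24 h (-1.02 ± 0.11, adjusted p = 8.5e-07).

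Mthfd2 had 117, 114 and 107.5 TPM in 2D at 0 h and 179, 183 and 171 TPM in 2D at 24 h. In 3D it had 47.9, 38.6 and 43.4 TPM at 0 h and 84.7, 80.75 and 81.0 TPM at 24 h. No 2 groups overlapped, and 3D at 0 h, where Shmt2 was highest, was the lowest. Mthfd2 was 2.98-fold lower in 3D at 0 h (-1.57 ± 0.12, adjusted p = 9.1e-09), the largest difference of the list at that time, and 2.20-fold lower at 24 h (-1.14 ± 0.11, adjusted p = 3.1e-07).

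Set side by side, the culture comparison at 0 h called all 10 genes, 4 higher and 6 lower in 3D. Among all 14338 genes tested, 45.8% were called, 23.1% higher and 22.7% lower. Abundant genes were called more often: of the 6140 genes with a mean of at least that of Chac1 (27.5 CPM), 54.9% were called, 21.4% higher and 33.6% lower. The CPM values of the 3D and 2D libraries did not overlap for any of the 10 genes, which held for 54.4% of all genes. The median log2 fold change of the 10 was -0.54, and that of all genes was 0.02. Because genes moved both ways, that median does not describe any of them well: values ran from -1.57 (Mthfd2) to 1.27 (Ddit3). Of the genes with the searched core before or after their start, Trib3 was higher in 3D at 0 h and Asns and Chac1 were lower.

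At 24 h the comparison called 8 of the 10 genes, with 1 higher (Ddit3) and 7 lower in 3D. The background was 42.5% of all genes called, 19.6% higher and 22.8% lower, and among genes at least as abundant as Chac1 it was 52.9%, with 23.3% higher and 29.6% lower. CPM values, after TMM scaling, did not overlap for 9 genes, all but Atf4, and for 52.9% of all genes. For Sesn2 that separation was the narrow one given above, and for Trib3, which was not called, the groups overlapped by TPM. The median of the 10 was -0.80, beside a median of 0.00 for all genes. All 5 enzyme genes were at the lower end, from -0.91 (Asns) to -2.25 (Psat1), while Atf4 was at 0.02. A difference of at least 1 on the log2 scale was reached by 4 of the 10 genes at 24 h and by 21.8% of all genes. At 0 h it was reached by 3 of the 10 genes and by 23.5% of all genes.

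**Figure D2:**
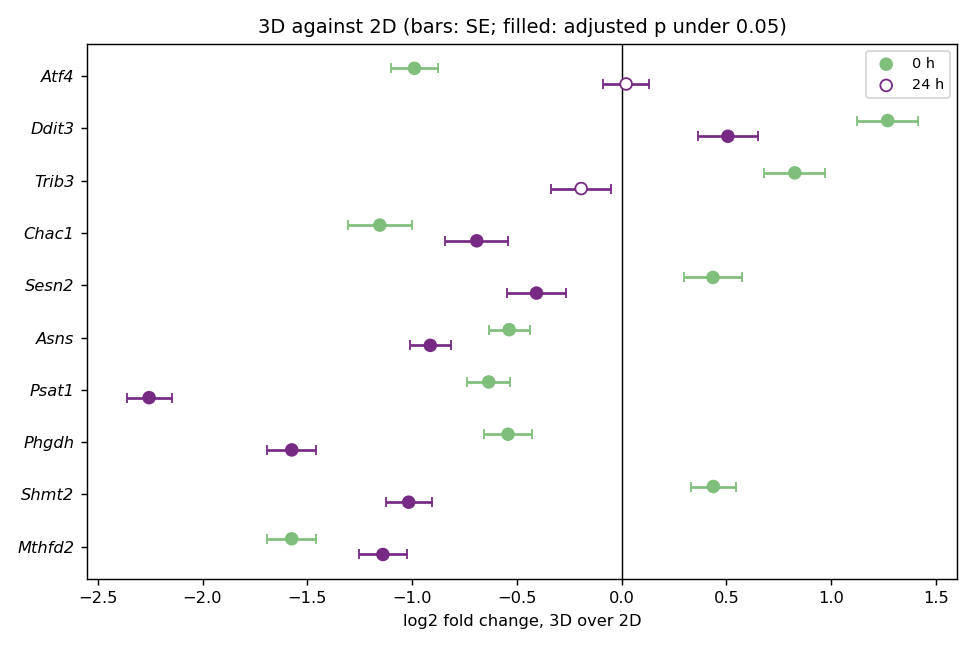
log2 fold change of 3D over 2D for each gene at 0 h (green) and at 24 h (purple), with SE bars; filled points were called at an adjusted p under 0.05. Psat1, Phgdh and Shmt2 lie further to the left at 24 h than at 0 h, whereas Atf4 moves from -0.99 to 0.02.

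A change over time in the difference between cultures was tested directly, as the log2 fold change between cultures at 24 h minus its value at 0 h. The difference changed for 9 of the 10 genes, 2 upward and 7 downward, where 39.1% of all genes were called, 18.7% upward and 20.5% downward. Among genes at least as abundant as Chac1 the share was 50.5%, with 27.9% upward and 22.6% downward. Atf4 moved upward by 1.01 ± 0.16 (adjusted p = 6.4e-05). Psat1 (-1.62 ± 0.15, adjusted p = 1.7e-07), Shmt2 (-1.45 ± 0.15, adjusted p = 1.1e-06) and Phgdh (-1.03 ± 0.16, adjusted p = 7.5e-05) moved the other way. Mthfd2, whose enzyme acts after that of Shmt2, moved upward like Atf4 and is given below with Asns. Feedback genes also moved downward, by -1.02 ± 0.20 for Trib3 (adjusted p = 0.00075), -0.84 ± 0.20 for Sesn2 (adjusted p = 0.0027) and -0.76 ± 0.20 for Ddit3 (adjusted p = 0.0061). Chac1 had a value of 0.46 and was not called (adjusted p = 0.098).

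The values for Asns (-0.38 ± 0.14, adjusted p = 0.040) and Mthfd2 (0.44 ± 0.16, adjusted p = 0.039) were close to the threshold. The call for Asns ended on leaving out any 1 library other than 2D 0 h replicate 1 (11 of 12 cases, -0.41 to -0.28, adjusted p = 0.054 to 0.12). That for Mthfd2 ended in 6 of 12 cases, without 2D 0 h replicate 1, 2D 24 h replicates 2 and 3, 3D 0 h replicates 2 and 3, or 3D 24 h replicate 2 (0.38 to 0.45, adjusted p = 0.057 to 0.10). That for Asns also ended with no filter and with the replicate number as a block (adjusted p = 0.11 and 0.066), and that for Mthfd2 with upper-quartile scaling, with no filter and with limma on the TPM values (adjusted p = 0.065, 0.069 and 0.14). Chac1 was called without 2D 24 h replicate 1 (0.63, adjusted p = 0.026).

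The comparisons of 24 h with 0 h within a culture use the same libraries as those above, so they restate the values rather than add to them. In attached cells, 5 genes rose over 24 h and 1 fell. Of all genes, 34.4% were called, 17.4% higher and 17.0% lower, and of those at least as abundant as Chac1, 46.3% were called, 18.2% higher and 28.1% lower. Trib3 rose 2.46-fold (1.30 ± 0.15, adjusted p = 7.0e-06), Asns 1.57-fold (0.65 ± 0.10, adjusted p = 0.00011), Ddit3 1.42-fold (0.50 ± 0.14, adjusted p = 0.013), Mthfd2 1.36-fold (0.44 ± 0.11, adjusted p = 0.0060) and Psat1 1.28-fold (0.36 ± 0.10, adjusted p = 0.013). Atf4 was 1.28-fold lower (-0.36 ± 0.11, adjusted p = 0.018), the opposite direction to those 5 genes, and its libraries of 24 h and 0 h overlapped. Chac1 and Sesn2 were not called, at -0.22 and 0.18 (adjusted p = 0.26 and 0.33).

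That call of Atf4 ended without 2D 0 h replicate 1, 2D 24 h replicate 2 or 2D 24 h replicate 3 (-0.33 to -0.29, adjusted p = 0.064 to 0.089), in the fit of the 2D groups alone (-0.34, adjusted p = 0.054) and with limma on log2(TPM + 1) (-0.14, adjusted p = 0.24). The call of Ddit3 ended without 2D 0 h replicate 3 or 2D 24 h replicate 1 (0.39 in either case, adjusted p = 0.052 and 0.054). Phgdh (0.26, adjusted p = 0.082) and Shmt2 (0.17, adjusted p = 0.24) were not called by counts but were called by limma on log2(TPM + 1) (0.49 and 0.43, adjusted p = 0.0021 and 0.0056). Phgdh was also called with upper-quartile scaling, with library totals and without 2D 0 h replicate 1 (adjusted p = 0.038, 0.024 and 0.035). The median of the 10 in this comparison was 0.31 by counts and 0.53 by limma on TPM, beside medians of all genes of 0.02 and 0.17.

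In spheroids 3 genes rose over 24 h and 4 fell, where 48.5% of all genes were called, 23.8% higher and 24.7% lower. Among genes at least as abundant as Chac1, 57.9% were called, 29.2% higher and 28.8% lower. Mthfd2 rose 1.84-fold (0.88 ± 0.11, adjusted p = 8.0e-06), Atf4 1.57-fold (0.65 ± 0.11, adjusted p = 0.00013) and Asns 1.21-fold (0.28 ± 0.10, adjusted p = 0.028). Shmt2 was 2.44-fold lower (-1.28 ± 0.11, adjusted p = 5.6e-08), Psat1 2.40-fold lower (-1.26 ± 0.10, adjusted p = 3.8e-08), Phgdh 1.70-fold lower (-0.77 ± 0.12, adjusted p = 3.4e-05) and Sesn2 1.58-fold lower (-0.66 ± 0.14, adjusted p = 0.00094). Ddit3, Trib3 and Chac1 were not called, at -0.26, 0.28 and 0.24 (adjusted p = 0.14, 0.12 and 0.21). The median of the 10 was -0.01, and that of all genes was 0.00.

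The call of Asns in spheroids ended without 3D 0 h replicate 3, 3D 24 h replicate 2 or 3D 24 h replicate 3 (0.26 to 0.28, adjusted p = 0.057 to 0.078), and with no filter (0.28, adjusted p = 0.065). Trib3 was called with library totals, in the fit of the spheroid groups alone and without 2D 0 h replicate 2 (adjusted p = 0.036, 0.025 and 0.025).

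**Figure D3:**
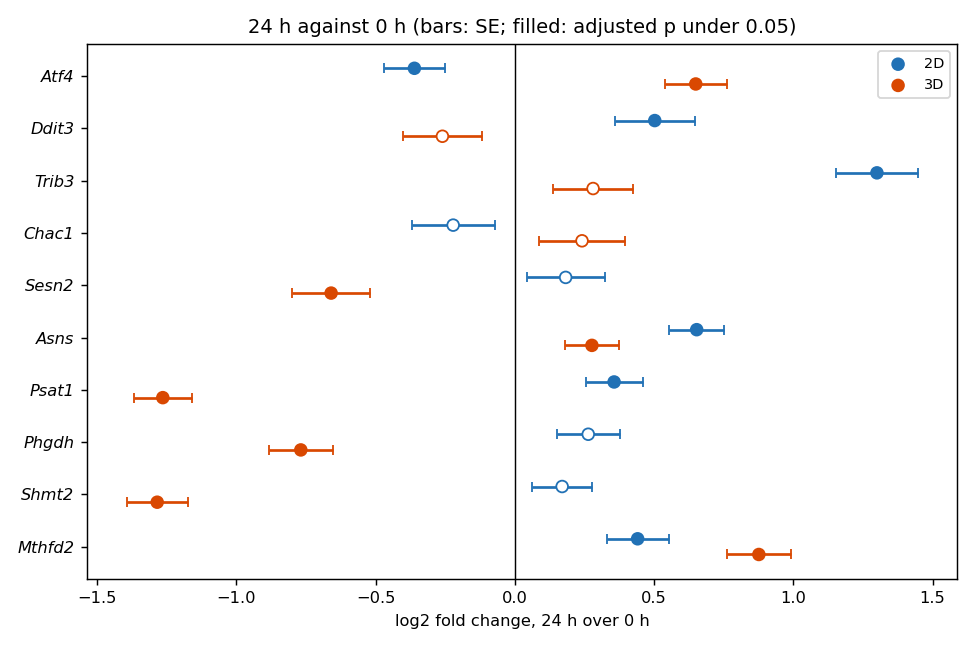
log2 fold change of 24 h over 0 h for each gene in attached cells (2D, blue) and in spheroids (3D, orange), with SE bars; filled points were called at an adjusted p under 0.05. Psat1 lies at 0.36 in 2D and at -1.26 in 3D, and Atf4 at -0.36 in 2D and 0.65 in 3D.

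The rank of the genes by TPM also differed between the groups. Phgdh was the most abundant of the 10 in attached cells at both times, with means of 321 TPM at 0 h and 449 TPM at 24 h. In spheroids at 0 h Shmt2 was first (266 ± 19.7 TPM, SD, n = 3) and Ddit3 next (251 ± 15.5 TPM), with overlapping libraries. In spheroids at 24 h Atf4 (253 ± 12.3 TPM) and Ddit3 (237 ± 16.0 TPM), again overlapping, were ahead of Asns (208 ± 1.80 TPM), and Psat1, which ranked 4 in 2D at 0 h, ranked 8 (58.0 ± 3.24 TPM). Summed over the 5 enzyme genes, the level was 1020.2 ± 85.3 TPM at 0 h and 1531 ± 10.4 TPM at 24 h in attached cells, and 847 ± 39.5 TPM at 0 h and 622 ± 21.6 TPM at 24 h in spheroids (SD, n = 3). Summed over Ddit3, Trib3, Chac1 and Sesn2, it was 214 ± 2.08, 373 ± 13.0, 413 ± 24.2 and 407 ± 23.5 TPM in the same order. The enzyme sum was thus lowest in the spheroids of 24 h, and the other sum, of which Ddit3 made up the largest part in every group, was lowest in 2D at 0 h. Within the latter, Chac1 was higher in 2D (37.1 TPM at both times) than in 3D (18.5 and 23.6 TPM). The size of the rises over time in 2D depends on the scale. There the median log2 fold change of all genes was 0.17 by limma on log2(TPM + 1) and 0.02 by counts under TMM.

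Each gene was also set against Atf4 in the same library, as the log2 of the TPM ratio. Psat1 relative to Atf4 was -0.51 ± 0.22 at 0 h and 0.20 ± 0.09 at 24 h in attached cells. In spheroids it went from -0.18 ± 0.19 at 0 h to -2.12 ± 0.03 at 24 h (SD of 3 libraries). Ddit3 relative to Atf4 was -1.53 ± 0.14 in attached cells and 0.75 ± 0.12 in spheroids at 0 h, the latter with Ddit3 the more abundant in all 3 libraries. Asns relative to Atf4 was -0.28 ± 0.20 at 0 h and 0.68 ± 0.03 at 24 h in attached cells, and 0.12 ± 0.06 at 0 h and -0.28 ± 0.07 at 24 h in spheroids. The ratio to Atf4 was least variable for Chac1, whose group means stayed between -3.42 and -2.72. These ratios were not tested, and the RNA of Atf4 is not its activity.

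**Figure D4:**
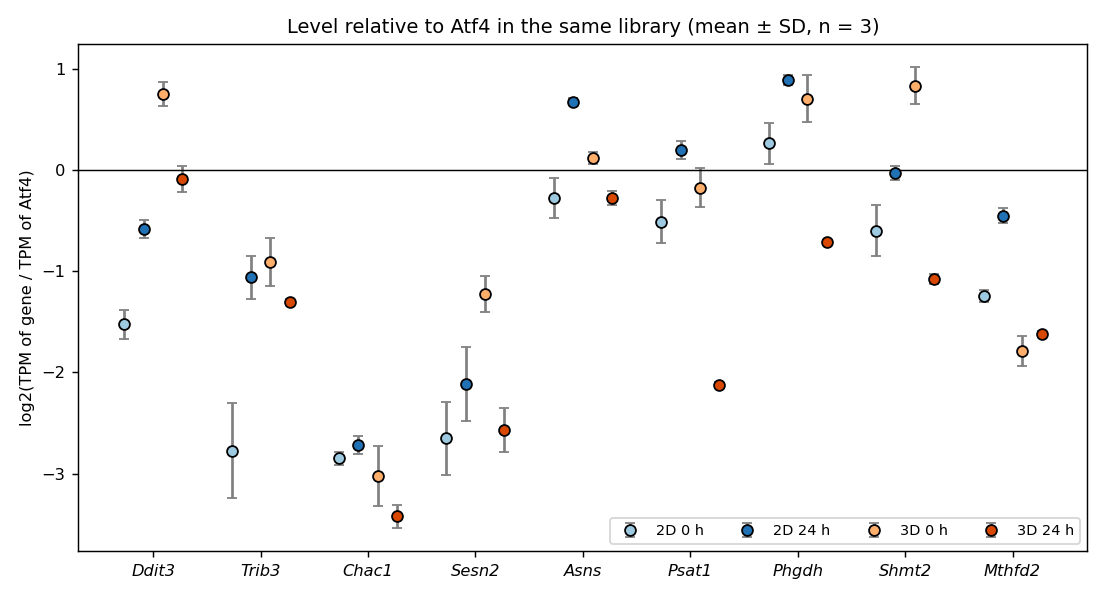
log2 ratio of the TPM of each gene to that of Atf4 in the same library, as the mean and SD of 3 libraries per group. The group means of Chac1 lie between -3.42 and -2.72, whereas that of Psat1 is -2.12 in 3D at 24 h and between -0.51 and 0.20 in the other groups.

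Likeness across the 4 groups was measured as the root mean square difference between centred group means of log2 CPM, a description with no test, over 4 points. Within the list the closest pairs were Phgdh and Psat1 (0.26), Sesn2 and Shmt2 (0.27) and Atf4 and Chac1 (0.27). The most distant was Ddit3 against Psat1 (1.22). Chac1 ranked 1309th among the 10030 genes compared with Atf4, so a profile as near to that of Atf4 as Chac1's was common in these data. The genes nearest to Atf4 were ENSMUSG00000074063 (0.0068) and ENSMUSG00000103906 (0.016), which are given by ID since the tables used here do not name them. Both were barely above the 10 CPM that a gene needed in its highest group. In 2D at 0 h they stood at 11.5 ± 2.57 and 11.1 ± 2.79 CPM (SD, n = 3), so distances this small are imprecise.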

How the data were processed

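RNA was sequenced from 12 libraries in 4 groups of 3. Per the submitters' processing notes, FastQC 0.11.9, STAR, RSEM and the build GRCm39 were used. No annotation, setting or version of STAR or RSEM is given in the sources used here. Deposited were the authors' expected counts by gene ID (estimates, which need not be whole) and log2(TPM + 1) values. Columns labelled day 0 and day 1 were read as 0 h and 24 h.

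Counts were rounded and filtered with edgeR 4.0.16 (filterByExpr, minimum count 10) in R 4.3.3, scaled by TMM, and fitted across all 12 libraries by the quasi-likelihood method with 1 term per group. P-values were adjusted by Benjamini-Hochberg over all genes tested. SEs were taken from the fold change and the F statistic. TPM values are 2 to the power of the deposited log2 values, minus 1. The steps were tested on simulated data. Alternatives used DESeq2 1.42.0, limma 3.58.1, other scalings and filters, the replicate number as a block, and each library left out. All 10 listed genes are named, and from the whole table only the 2 nearest to Atf4. The members and lists were chosen with earlier results of these data known. Lists of other pathway genes and of cell type markers were fixed by symbol and are not analysed here, because the tables used here pair no Ensembl ID with a symbol.

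Depth ran from 10182590 to 17109609 counts per library.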

Additional observations from a re-analysis of the deposited data

Results flagged for a closer look

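The 3D against 2D difference was not the same at 24 h as at 0 h for 9 of the 10 genes, by edgeR's test of that difference at an adjusted p under 0.05. As log2 values at 24 h minus 0 h, these were 1.01 for Atf4, 0.44 for Mthfd2, -0.38 for Asns, -0.76 for Ddit3, -0.84 for Sesn2, -1.02 for Trib3, -1.03 for Phgdh, -1.45 for Shmt2 and -1.62 for Psat1. Among all genes 39.1% passed the same test, and among genes at least as abundant as Chac1 50.5% did. With 1 library left out, the call was lost in 11 of 12 cases for Asns and in 6 of 12 for Mthfd2. The direction of the 3D against 2D difference reversed between the times, with a call at each, for Shmt2 (0.44 to -1.02). It also did for Sesn2 (0.44 to -0.41), but there the call at 0 h was lost in 2 of 12 cases with 1 library left out and the call at 24 h in 7 of 12, and the latter also with upper-quartile scaling, library totals and limma on TPM. Groups of 3 libraries were too small to be screened for single outlying libraries.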

How the results depend on the processing

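Of 440 single-gene values under other tools, scalings, filters, TPM values, the replicate block or fits of only the groups compared, 418 kept their direction and side of the threshold, 14 lost a call, 8 gained one and 0 changed sign. With each library left out in turn, 561 of 600 values kept both, 35 lost a call, 3 gained one and 1 changed sign (Atf4, 3D against 2D at 24 h, which ranged from -0.0191, without 2D 24 h replicate 3, to 0.1775). The causes were not tested. The count of listed genes called was 10 at 0 h under each of the first kind of alternative and 9 or 10 with a library left out. At 24 h it was 7 or 8, and 6 to 8. For the difference between times it was 7 to 9 in both. The replicate number is shared between groups but did not pair them (deviations from the group means correlated at -0.23 to 0.05 between libraries of the same number, and 0 of 12 libraries were closest to their own number). With the replicate block the counts of listed genes called were 10, 8, 6, 7 and 8 for the 5 comparisons, and the difference between times lost Asns (-0.38, adjusted p = 0.066). The split of all genes called moved with the scaling: 49.6% of those called at 0 h were lower in 3D under TMM, 40.8% under library totals and 39.3% under upper-quartile scaling. At 24 h it was 53.8% under TMM and 42.6% under library totals, which moved the median log2 fold change of all genes to 0.12 at both times. With limma on log2(TPM + 1), which changes test, measure and scaling together, it was 38.0% at 0 h, and 30.3% of genes called over time in 2D were lower, against 49.5% under TMM.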

Other observations

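The spread between libraries of a group differed from gene to gene. In 2D at 0 h the coefficient of variation of Trib3 was 24.3% of its CPM, with replicate 2 lowest (37.7 against 61.3 and 57.8), while in 2D at 24 h it was 0.803%. By TPM it was 24.5% and 9.82%, so the second value depends on the scale. Sesn2 varied by 14.4% to 14.8% in 3 of the groups and by 7.46% in 3D at 0 h by CPM, and by 17.9% to 20.8% and 6.09% by TPM. The spheroid libraries of 24 h were close together by CPM for Psat1 (1.61%), Phgdh (1.82%) and Atf4 (2.34%), and less so by TPM (5.58%, 5.16% and 4.86%). With 3 libraries a group these spreads are themselves imprecise, and no test of them was made.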
